A study of Rattus norvegicus with 21 samples.

Results

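Txnip, its relatives Arrdc2, Arrdc3 and Arrdc4, and Mlxipl were followed through RNA sequencing of rat pancreatic islets cultured in high glucose with palmitate. The 5 genes were taken by symbol from a table of 17025 genes, and all 5 had enough reads to be tested among 12576.

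Txnip encodes a protein of the alpha-arrestin family that binds and inhibits thioredoxin and promotes removal of glucose transporters from the cell surface. Arrdc2, Arrdc3 and Arrdc4 encode alpha-arrestins that act as adaptors for HECT ubiquitin ligases, and Arrdc3 is also known for control of beta-adrenergic receptor trafficking. Mlxipl encodes ChREBP, a transcription factor that is activated by glucose metabolites. ChREBP and its relative MondoA bind DNA together with Mlx, and Txnip and Arrdc4 are among their best-known targets. In beta cells Txnip is known as one of the genes most strongly induced by glucose and as a promoter of beta-cell death.

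The islets came from Sprague Dawley rats in 3 separate preparations, each pooled from 8 animals and divided over the cultures, so that every preparation ran through nearly all conditions. Control medium held 11 mM glucose, and glucolipotoxic (GLT) medium held 27 mM glucose with 300 µM palmitate. Condition 1 was control for 3 h, condition 4 GLT for 24 h, condition 5 GLT with compound D for 3 h and condition 6 GLT with compound D for 24 h, each with 3 libraries, 1 from each preparation. Condition 7 was GLT with compound E for 3 h, with 1 library from preparation 2, and condition 8 GLT with compound E for 24 h, with 2 libraries from preparations 1 and 2. Both compounds were given at 300 nM, the labels name no target for either, and no culture had a compound without GLT. The sample records and the deposited sample sheet name the 6 libraries of conditions 2 and 3 in opposite ways. By the records condition 2 was control for 24 h and condition 3 GLT for 3 h, and by the sheet condition 2 was GLT for 3 h and condition 3 control for 24 h. Comparisons that use either condition are given below with both readings.

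Depth ran from 22.3 to 40.2 M counts in genes per library, and levels are given as CPM, a gene's counts relative to all counts in genes after TMM scaling (the usual CPM). CPM is not corrected for transcript length, so levels are compared between libraries and not between genes. Whole islets hold several cell types, and a lower level can come from fewer cells of a type or from less RNA per cell, which bulk libraries cannot tell apart. Beta-cell markers summed to 79238 to 632841 CPM and alpha-cell markers to 10873 to 31632 CPM, while acinar markers stayed at 1.32 to 10.8 CPM. Between 9.32% and 45.9% of the counts in each library fell on the insulin genes. Endothelial markers summed to 127 to 171 CPM in conditions 1 and 5 and 151 CPM in condition 7, which both sources place at 3 h, and to 16.5 to 79.9 CPM in conditions 4, 6 and 8, which both place at 24 h. They summed to 156 to 180 CPM in condition 2 and 56.5 to 87.2 CPM in condition 3. The red-cell list showed the same split, with 8.06 to 12.3 CPM in condition 2 and 0.43 to 0.571 CPM in condition 3, against 3.1 to 12.4 CPM in conditions 1, 5 and 7 and 0.188 to 1.06 CPM in conditions 4, 6 and 8. On both lists condition 2 lay above every undisputed 24 h library and condition 3 below every undisputed 3 h library. This is the order of the sheet's times. Not every marker list split by time. The stellate list summed to 1052 to 1470 CPM in condition 3 and 378 to 459 CPM in condition 2. It summed to 327 to 606 CPM in conditions 1, 5 and 7 and 327 to 889 CPM in conditions 4, 6 and 8. Which source is right was not tested.

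The promoters of the alpha-arrestins are shown because Arrdc4 came closer to Txnip in pattern in these libraries than Arrdc2 and Arrdc3 did. RefSeq's windows, from 250 bases before to 50 bases after a gene's start on the GRCr8 assembly, were at hand for 4 of the 5 genes (not Txnip). Each is written 5′ to 3′ on the gene's own strand, with CCAAT boxes (CCAAT or its reverse complement ATTGG) and the E-box CACGTG, which reads the same on both strands, in capitals. The Arrdc4 window lies at chr1:131793376-131793675 on the minus strand, the Arrdc3 window at chr2:12872952-12873251 on the plus strand and the Arrdc2 window at chr16:18635633-18635932 on the plus strand.
Arrdc4: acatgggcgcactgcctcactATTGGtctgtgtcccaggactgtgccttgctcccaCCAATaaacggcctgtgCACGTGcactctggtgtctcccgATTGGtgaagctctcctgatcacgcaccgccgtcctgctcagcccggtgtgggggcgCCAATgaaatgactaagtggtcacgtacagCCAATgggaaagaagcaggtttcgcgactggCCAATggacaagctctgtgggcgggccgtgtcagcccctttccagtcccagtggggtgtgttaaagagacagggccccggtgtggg
Arrdc3: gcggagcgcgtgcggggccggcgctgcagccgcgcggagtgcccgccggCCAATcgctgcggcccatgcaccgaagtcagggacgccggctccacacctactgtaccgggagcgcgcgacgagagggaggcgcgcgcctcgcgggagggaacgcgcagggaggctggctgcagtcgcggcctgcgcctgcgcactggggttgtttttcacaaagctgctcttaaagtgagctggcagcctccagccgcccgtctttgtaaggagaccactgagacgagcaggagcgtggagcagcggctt
Arrdc2: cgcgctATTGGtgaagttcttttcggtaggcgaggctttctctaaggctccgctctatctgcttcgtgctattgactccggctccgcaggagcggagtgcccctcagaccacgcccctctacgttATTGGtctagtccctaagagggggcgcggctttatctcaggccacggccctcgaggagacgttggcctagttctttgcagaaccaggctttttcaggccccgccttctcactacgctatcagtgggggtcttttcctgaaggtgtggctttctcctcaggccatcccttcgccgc

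CCAAT boxes bind the factor NF-Y, and CACGTG is the core sequence of which the carbohydrate response element holds a pair of imperfect copies. The Arrdc4 window held 6 CCAAT boxes, which start at positions -229, -194, -154, -97, -67 and -36 from the gene's start, and 1 CACGTG at -177. At least 1 CCAAT box was found in 37.5% of 33469 rat windows of the same length, but 6 or more in 0.0418% of them. CACGTG was found in 6.42%. Arrdc3 held 1 CCAAT box. Arrdc2 and Mlxipl held 2 each, and 2 or more were found in 11.2% of windows. The full carbohydrate response element consensus was found in 0.0299% of all windows and in none of the 4 genes' windows. No motif overlapped another in the Arrdc4 window.

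Txnip had the widest range of the 5 genes, 33-fold from the lowest to the highest CPM. In control islets at 3 h it stood at 33.9, 50.3 and 34.4 CPM in preparations 1, 2 and 3. With GLT and compound D it stood at 1117, 922 and 264 CPM after 3 h and at 235, 468 and 194 CPM after 24 h. These 6 libraries lay above all 15 others, the highest of which had 137 CPM. GLT alone for 24 h gave 76.5, 90.9 and 46.9 CPM, and GLT with compound E gave 44.9 and 56.6 CPM in preparations 1 and 2 after 24 h and 82.9 CPM in preparation 2 after 3 h. Condition 2 had 137, 108 and 47.3 CPM and condition 3 had 36.1, 74.3 and 41.1 CPM, so the disputed libraries overlapped with the control and with the 24 h GLT libraries. By mean level the order was condition 5 (768 CPM), 6 (299), 2 (97.6), 7 (82.9), 4 (71.5), 8 (50.7), 3 (50.5) and 1 (39.5). Condition 6 did not overlap condition 2, while the ranges of the other neighbours in that order overlapped.

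**Figure D1:**
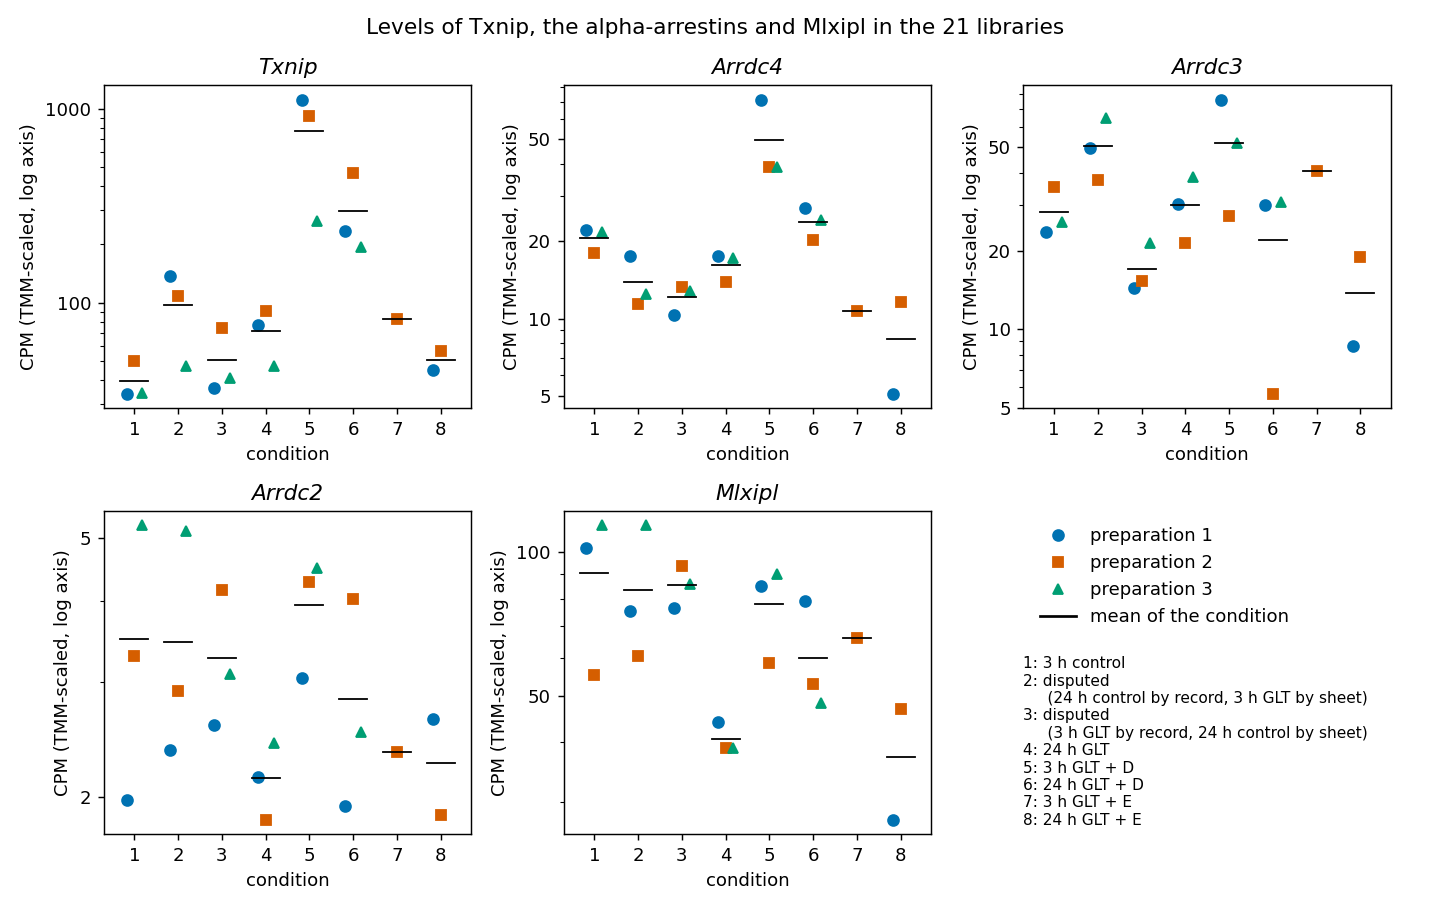
CPM (TMM-scaled, log axis) of the 5 genes in the 21 libraries by condition, with a symbol for each preparation and a bar at the mean of the condition. Txnip is highest in all 6 libraries with compound D (194 to 1117 CPM), Arrdc4 is highest in condition 5, and Mlxipl is low in conditions 4 (38.8 to 44.1 CPM) and 8 (27.5 and 47 CPM).

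Arrdc4 was also highest by mean in conditions 5 and 6, over a smaller range, 14-fold, but the other conditions were ordered differently. Against condition 1, the means of conditions 2, 3, 4, 7 and 8 were higher for Txnip and lower for Arrdc4. Arrdc4 stood at 22.1, 18.1 and 21.7 CPM in control islets at 3 h and at 71.5, 39.1 and 39.1 CPM with GLT and compound D at 3 h. After 24 h it had 17.5, 13.9 and 17.3 CPM with GLT and 27, 20.2 and 24.3 CPM with compound D added. GLT with compound E gave 5.09 and 11.6 CPM after 24 h and 10.7 CPM after 3 h, all below the lowest library of condition 4. Condition 2 (17.6, 11.4 and 12.5 CPM) and condition 3 (10.3, 13.3 and 12.8 CPM) both lay below the lowest control library at 3 h. By mean the order was condition 5 (49.9 CPM), 6 (23.8), 1 (20.6), 4 (16.2), 2 (13.8), 3 (12.2), 7 (10.7) and 8 (8.36), and condition 5 did not overlap condition 6. Condition 1 did not overlap condition 4 either, a difference that was not tested, and the ranges of the other neighbours overlapped.

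Arrdc3 ranked the conditions differently. It had 23.6, 35.3 and 25.9 CPM in control islets at 3 h, 49.7, 37.6 and 64.6 CPM in condition 2, and 14.4, 15.4 and 21.4 CPM in condition 3. GLT for 24 h gave 30.4, 21.5 and 38.3 CPM. With compound D it had 76.2, 27.2 and 51.8 CPM at 3 h and 30, 5.66 and 30.7 CPM at 24 h, with preparation 2 lowest both times. Compound E gave 40.6 CPM at 3 h and 8.65 and 18.9 CPM at 24 h. Arrdc2 was covered by 48 to 178 counts per library and stayed between 1.85 and 5.22 CPM, and condition 4 (1.85 to 2.42 CPM) lay below conditions 3 (2.58 to 4.15 CPM) and 5 (3.05 to 4.49 CPM). Mlxipl ranged from 27.5 CPM, in the compound E library of preparation 1, to 114 CPM.

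Compound D with GLT for 3 h was compared with 3 h control, a contrast that holds both the medium and the compound. Txnip rose in each preparation, 33-fold, 18.3-fold and 7.69-fold, and the fitted log2 change was 4.12 (SE 0.38, n = 3, edgeR quasi-likelihood test with Benjamini-Hochberg adjustment, adjusted p = 0.000228). It ranked 1st of all genes by p, and 0.103% of genes (13) passed in this comparison. Txnip passed in every alternative fit of this contrast that was run, and it was the 1 gene to pass when preparation 1 or preparation 3 was left out. The insulin genes took 12.7%, 33.4% and 24.5% of counts in control and 11.5%, 28.7% and 17% with compound D. Arrdc4 did not overlap between the groups (39.1 to 71.5 against 18.1 to 22.1 CPM), with a log2 change of 1.26 (SE 0.29) and an adjusted p of 0.157. It passed with DESeq2 (1.27, adjusted p = 0.00663), without preparation 2 (1.34, adjusted p = 0.0353) and without the compound E library of preparation 1 (1.25, adjusted p = 0.0223). Arrdc3 (0.77, SE 0.47), Arrdc2 (0.22, SE 0.32) and Mlxipl (-0.20, SE 0.28) did not pass, and Arrdc3 passed only when preparation 2 was left out (1.41, adjusted p = 0.0238).

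The effect of compound D alone can be read against GLT of the same duration. At 24 h, where the labels are not disputed, Txnip rose 3.08-fold, 5.15-fold and 4.14-fold with compound D in preparations 1, 2 and 3. The log2 change was 2.04 (SE 0.35, n = 3, adjusted p = 0.00499, edgeR), against a background of 4.09% of genes that passed. The insulin genes took 23%, 25.8% and 9.32% of counts with GLT and 11.7%, 43.3% and 10% with compound D. Rn45s, the ribosomal RNA precursor gene, took 1.57%, 1.59% and 4.89% with GLT and 7.23%, 1.56% and 6.92% with compound D. Whether these shifts in composition bear on the Txnip difference was not tested. The Txnip call was lost without preparation 1 (2.21, adjusted p = 0.0661) or preparation 2 (1.87, adjusted p = 0.078), with the direction kept. Arrdc4 was higher in each preparation (1.54-fold, 1.45-fold and 1.41-fold) and its ranges did not overlap, but it did not pass (0.55, SE 0.29, adjusted p = 0.362). Mlxipl was likewise higher in 3 of 3 preparations with no overlap (48.2 to 79.2 against 38.8 to 44.1 CPM) and did not pass (0.57, SE 0.29, adjusted p = 0.341). The share of all genes without overlap was not counted. Arrdc2 (0.37, SE 0.33) and Arrdc3 (-0.51, SE 0.47) did not pass.

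At 3 h the matching GLT group is condition 2 by the sheet and condition 3 by the records. Against condition 2, Txnip with compound D rose 8.12-fold, 8.53-fold and 5.6-fold (log2 change 2.92, SE 0.36, adjusted p = 0.00172, edgeR) where 0.485% of genes passed. Against condition 3 it rose by a log2 change of 3.80 (SE 0.37, adjusted p = 0.000234, edgeR) where 6.93% of genes passed. Arrdc4 rose in both as well, by 1.84 against condition 2 (SE 0.29, adjusted p = 0.00847) and by 2.01 against condition 3 (SE 0.30, adjusted p = 0.00218). Without preparation 1 the adjusted p against condition 2 was 0.0561 for both genes, with log2 changes of 2.83 for Txnip and 1.71 for Arrdc4. The Arrdc4 call against condition 2 was also lost without preparation 3 (1.93, adjusted p = 0.25) and without 1 library: condition 5 of preparation 1 (1.50), or condition 2 of preparation 2 (1.74) or 3 (1.78). Against condition 3 it was lost without preparation 3 (2.19, adjusted p = 0.0673), and in a fit of these conditions alone neither Arrdc4 (1.98) nor Txnip (3.75) passed (adjusted p = 0.163 for both). Arrdc3 stood at 0.02 (SE 0.46) against condition 2 and at 1.56 (SE 0.48, adjusted p = 0.0636) against condition 3, where DESeq2 (1.58, adjusted p = 0.0122) and the fits without preparation 2 (1.88, adjusted p = 0.00304) or without the compound E library of preparation 1 (1.52, adjusted p = 0.0393) passed it. Mlxipl (-0.09 and -0.16) and Arrdc2 (0.21 and 0.25) did not pass.

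**Figure D2:**
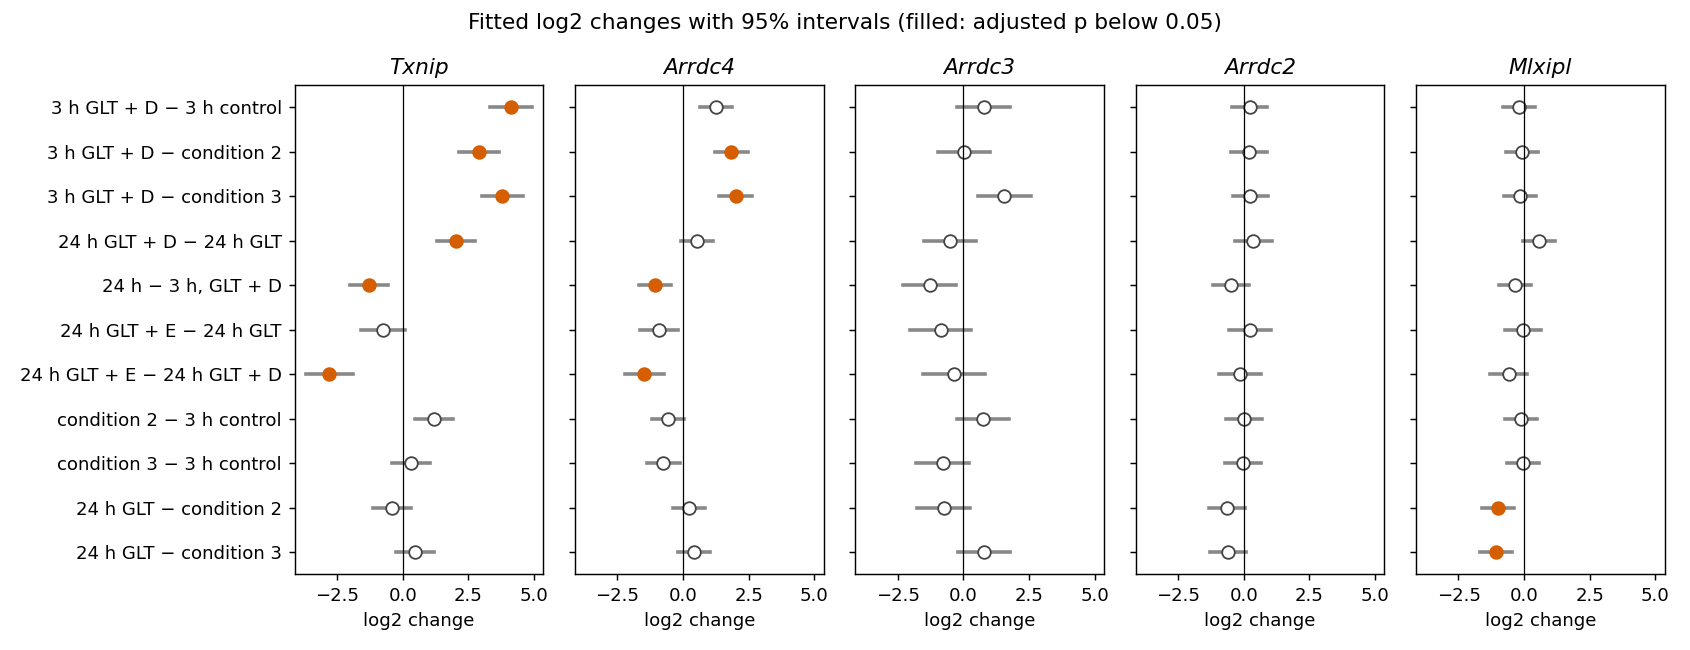
Fitted log2 changes (points) with 95% intervals (lines) of the 5 genes in 11 comparisons, filled where the adjusted p was below 0.05. Txnip is above 0 in the 4 comparisons of compound D with control or GLT alone, from 2.04 to 4.12, and the intervals of Arrdc2 cross 0 throughout.

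Compounds D and E can be compared at 24 h and the same dose, over preparations 1 and 2 for compound E. This is the 1 pair of compounds in the series at a matched time with replicates. Txnip was lower with compound E than with compound D, at 0.191 and 0.121 times its level (log2 change -2.79, SE 0.42, adjusted p = 0.0031, edgeR), where 3.01% of genes passed. Arrdc4 fell by 1.48 on the log2 scale (SE 0.35, adjusted p = 0.0316, edgeR), at 0.189 times its level in preparation 1 and 0.575 times in preparation 2. The compound E library of preparation 1 had the lowest TMM factor of all libraries (0.682). Without it the Txnip difference was -2.78 (adjusted p = 0.0601) and that of Arrdc4 -0.85 (adjusted p = 0.289). Without preparation 1 as a whole they were -2.97 (adjusted p = 0.119) and -0.86 (adjusted p = 0.407). The Arrdc4 call was also lost without the compound D library of preparation 1 (-1.42) or of preparation 3 (-1.45), without preparation 3 (-1.45, adjusted p = 0.183) and with library size in place of TMM (-1.78, adjusted p = 0.062). Arrdc3 (-0.36, 95% interval -1.55 to 0.83), Arrdc2 (-0.14, interval -0.93 to 0.66) and Mlxipl (-0.59, interval -1.29 to 0.11) did not pass. Without preparation 2, with 1 library of compound E left, Arrdc3 (-1.77, adjusted p = 0.00258) and Mlxipl (-1.24, adjusted p = 0.0139) passed, in a fit where 2121 genes passed as higher and 2422 as lower of 12467. At 3 h, preparation 2 gave 82.9 CPM of Txnip with compound E and 922 CPM with compound D, and 10.7 and 39.1 CPM of Arrdc4, with no replicate of the compound E culture.

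Against GLT alone at 24 h, Txnip with compound E stood at 0.587 and 0.623 times its level in preparations 1 and 2, with overlapping ranges. The log2 change was -0.75 (SE 0.39, 95% interval -1.58 to 0.07, adjusted p = 0.566). In this comparison 0% of genes passed with edgeR and none passed with DESeq2, while 812 had an unadjusted p below 0.05 in edgeR. Arrdc4 and Arrdc3 lay below GLT alone without overlap. Arrdc4 had a log2 change of -0.93 (interval -1.65 to -0.20, adjusted p = 0.566), and most of it came from preparation 1, at 0.291 times against 0.836 times in preparation 2. Without the compound E library of preparation 2 it stood at -1.87 (adjusted p = 0.0124), which rests on 1 library of compound E. Arrdc3 (-0.87, SE 0.55) passed only without preparation 2 (-1.93, adjusted p = 0.00346), where 3241 of 12467 genes passed. Arrdc2 (0.23) and Mlxipl (-0.03) did not pass.

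Time with compound D was compared within GLT. From 3 h to 24 h Txnip fell to 0.211, 0.508 and 0.735 times its level in preparations 1, 2 and 3 (log2 change -1.30, SE 0.34, adjusted p = 0.0362, edgeR), and Arrdc4 fell to 0.378, 0.517 and 0.621 times (-1.05, SE 0.29, adjusted p = 0.044), against 6.11% of genes that passed. Both falls were largest in preparation 1, which held the highest library at 3 h. Neither call was firm: without the preparation block the adjusted p was 0.152 for Txnip (-1.36) and 0.051 for Arrdc4 (-1.07). Leaving out the 3 h library of preparation 1 gave -0.87 for Txnip (adjusted p = 0.203) and -0.72 for Arrdc4 (adjusted p = 0.254). The Txnip call was lost without any 1 of the 6 libraries except that of preparation 3 at 3 h, and the Arrdc4 call without any except that of preparation 2 at 3 h. Arrdc3 was lower in 3 of 3 preparations (-1.29, SE 0.47, adjusted p = 0.123), and it passed in an edgeR fit without preparation 2 (-1.08, adjusted p = 0.0249). It also passed in a fit of these conditions alone (-1.40, adjusted p = 0.0216), where 1928 genes passed, against 769 in the main fit. Arrdc2 (-0.48) and Mlxipl (-0.35) did not pass.

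Whether the effect of compound D on Txnip differed between 3 h and 24 h depends on the naming of 3 h GLT. With the sheet's naming the difference of the effects was -0.88 for Txnip (SE 0.47, adjusted p = 0.675) and -1.29 for Arrdc4 (SE 0.41, adjusted p = 0.358), and 0.0318% of genes passed. With the records' naming it was -1.77 for Txnip (SE 0.48, adjusted p = 0.0352) and -1.46 for Arrdc4 (SE 0.41, adjusted p = 0.0412), and 7.75% of genes passed. If the sheet is right, the records' difference also holds time and medium. Both genes had a smaller effect at 24 h in each of the 3 preparations under either naming. Without preparation 1 the records' values were -0.99 for Txnip (adjusted p = 0.294) and -1.06 for Arrdc4 (adjusted p = 0.137). Leaving out most single libraries of the 4 conditions also ended these calls, with Txnip between -1.37 and -1.84 where it did not pass.

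The effect of GLT without a compound was read in 2 ways. By the sheet the 3 h effect is condition 2 against condition 1, where Txnip was 4.06-fold, 2.15-fold and 1.37-fold higher in preparations 1, 2 and 3 (log2 change 1.20, SE 0.34, adjusted p = 0.0883) and 2.3% of genes passed. It passed with DESeq2 (1.20, adjusted p = 0.0171) and in a fit of these conditions alone (1.18, adjusted p = 0.0368). By the records the 3 h effect is condition 3 against condition 1, where Txnip stood at 0.32 (SE 0.33, adjusted p = 0.786) and 0.692% of genes passed. Arrdc4 was lower in both, in 3 of 3 preparations and with no overlap, at -0.59 (SE 0.29, adjusted p = 0.41) and -0.75 (SE 0.29, adjusted p = 0.277), without passing. Arrdc3 did not overlap with control in either, and lay above it in condition 2 (0.75, SE 0.47) and below it in condition 3 (-0.79, SE 0.47). It passed in condition 2 when preparation 2 was left out (1.20, adjusted p = 0.0237).

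At 24 h, GLT is compared with condition 2 by the records and with condition 3 by the sheet. Txnip did not pass in either, at -0.41 (SE 0.33) against condition 2 and 0.47 (SE 0.33) against condition 3, with overlapping ranges. Mlxipl fell in both: it stood at 44.1, 38.9 and 38.8 CPM with GLT for 24 h, against 75.4, 60.6 and 114 CPM in condition 2 and 76.5, 93.9 and 85.9 CPM in condition 3. The log2 change was -1.01 against condition 2 (SE 0.29, adjusted p = 0.0424, edgeR), where 8.52% of genes passed, and -1.08 against condition 3 (SE 0.29, adjusted p = 0.0399, edgeR), where 5.97% passed. By either reading, then, 1 of these is the 24 h effect of GLT and the other the change of GLT islets from 3 h to 24 h. The calls lay close to the threshold. Without the preparation block they were -1.04 (adjusted p = 0.0529) and -1.07 (adjusted p = 0.0652), and with library size in place of TMM -0.76 (adjusted p = 0.225) and -0.99 (adjusted p = 0.184). Leaving out any 1 of the libraries compared ended either call, with values between -0.77 and -1.19 and the fall kept in each. Arrdc2 (-0.64 and -0.60), Arrdc3 (-0.75 and 0.79) and Arrdc4 (0.24 and 0.40) did not pass. Arrdc3 was lower than condition 2 by nearly the same factor in each preparation (0.611, 0.573 and 0.593 times). It passed in an edgeR fit of these conditions alone (-0.75, adjusted p = 0.00142), but 3293 genes passed in that fit, against 1072 in the main fit.

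The change of the GLT effect from 3 h to 24 h comes out the same under both readings. It was -0.73 for Txnip (SE 0.47, adjusted p = 0.755), 0.99 for Arrdc4 (SE 0.41, adjusted p = 0.513) and -0.97 for Mlxipl (SE 0.40, adjusted p = 0.517), and 0.0716% of genes passed. The 3 preparations had the same sign for each of these genes. Arrdc2 stood at -0.60 and Arrdc3 at 0.04.

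Compound D with GLT for 24 h was also set against the disputed conditions, of which 1 is 24 h control and the other 3 h GLT. Txnip rose against both, by 1.63 against condition 2 (SE 0.34, adjusted p = 0.00693, edgeR), where 12.5% of genes passed, and by 2.51 against condition 3 (SE 0.35, adjusted p = 0.0037, edgeR), where 0.716% passed. So Txnip with GLT and compound D for 24 h stood above 24 h control whichever source names it. Without the preparation block the adjusted p was 0.0544 and 0.0653 with changes of 1.62 and 2.57. Leaving out preparation 2 or 3 ended the call against condition 2 (1.41 and 1.45), and leaving out any preparation ended that against condition 3 (2.45 to 2.68). Arrdc4 lay above both without overlap and without passing (0.79, adjusted p = 0.0882, and 0.96, adjusted p = 0.155). It passed in both when the compound E library of preparation 1 was left out (0.80, adjusted p = 0.0143, and 0.93, adjusted p = 0.0381), and against condition 2 also without preparation 1 (0.89, adjusted p = 0.0437). Arrdc3 was lower than condition 2 without overlap (-1.27, SE 0.47, adjusted p = 0.0957), and Mlxipl (-0.44 and -0.52) and Arrdc2 (-0.27 and -0.23) did not pass.

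Over the 16 comparisons, Txnip passed in 9, Arrdc4 in 5 and Mlxipl in 2, and Arrdc2 and Arrdc3 in 0. The comparisons share libraries and are not independent of each other. Lack of overlap and agreement of the preparations in sign were not counted over all genes in any comparison. For genes that did not pass they describe levels only.

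Genes with the pattern most like that of Txnip were ranked by Pearson's r of log2 CPM over the 21 libraries after removal of each preparation's mean. Rgs16, which encodes a regulator of G-protein signalling, had the highest r (0.948), followed by Atp12a, a proton-potassium pump gene (0.941), Ttc25, a gene of ciliary dynein docking (0.926), and Klf10, a Krüppel-like transcription factor gene (0.889). Drd4 (0.829), Ssfa2 (0.826), Ntsr2 (0.821) and Ccdc32 (0.804) came next, and Arrdc4 stood in place 10 of all tested genes (0.79). By Spearman's rho the likeness of Arrdc4 was lower (0.63), as was that of Drd4 (0.655, place 34) and Ntsr2 (0.632, place 53), while Rgs16 kept the first place (0.905). The libraries share conditions and preparations, so these values describe the pattern and carry no test. Rgs16 went from a mean of 24.1 CPM in 3 h control to 125 CPM with GLT and compound D at 3 h and 73 CPM at 24 h, and had 33.4 CPM with GLT for 24 h and 20.4 CPM with compound E. Klf10 stood at 25.5, 57.5, 42.2, 20.7 and 17.6 CPM in the same order. Atp12a had a mean of 0.0422 CPM in 3 h control, below the limit of about 3 counts (0.0804 to 0.144 CPM), and 2.32 and 1.4 CPM in conditions 5 and 6. Drd4 reached at most 0.339 CPM in any library and Ntsr2 0.779 CPM, so their likeness rests on few counts.

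**Figure D3:**
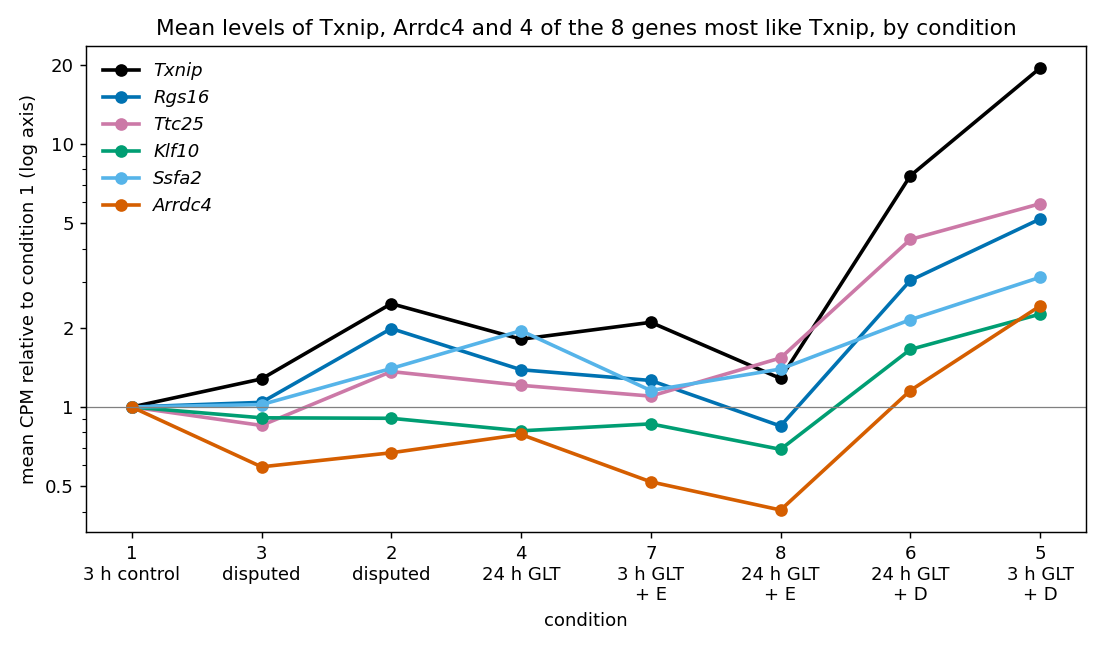
Mean CPM of each condition divided by that of condition 1 (log axis) for Txnip, Arrdc4 and 4 of the 8 genes most like Txnip, with lines that only connect the points. All 6 genes are highest in condition 5 (3 h GLT with compound D), and Arrdc4 lies below 1 in conditions 2, 3, 4, 7 and 8.

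The other members were closer to different genes than to Txnip. The r with Txnip was 0.29 for Arrdc2, 0.27 for Arrdc3 and 0.06 for Mlxipl. Arrdc3 was most like Desi2 (0.958), Cdk12 (0.954) and Prkx (0.938), Mlxipl most like Pip5k1c (0.949), Glb1l2 (0.943) and Insrr (0.932), and Arrdc2 most like Cxxc5 (0.873), Ier5 (0.868) and Sptssa (0.848). Map2k4, a kinase gene of stress signalling, was among the 3 genes most like Arrdc4 (0.860). Insrr, which encodes a receptor related to the insulin receptor, shared the low level of Mlxipl with GLT for 24 h (log2 change -1.69, SE 0.24, against condition 2 and -1.62, SE 0.24, against condition 3), and rose with compound D at 24 h (1.08, SE 0.24, adjusted p = 0.0196), where Mlxipl did not pass.

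Most other known targets of ChREBP and MondoA did not pass where Txnip did. The list held 36 symbols, of which 29 were tested. With compound D and GLT at 3 h against control, where 0.103% of all genes passed, 1 of 29 rose, Rgs16 (2.38, SE 0.27, adjusted p = 0.00194, edgeR), and 0 fell. The list median was 0.19 against -0.04 over all genes, and 19 of 29 lay above 0. Pklr, the pyruvate kinase gene often used to read ChREBP activity, stood at -0.11 (SE 0.19), Fasn, the fatty acid synthase gene, at 0.46 (SE 0.23), and Mid1ip1, an activator of fatty acid synthesis, at 0.84 (SE 0.18, adjusted p = 0.117). Against condition 2 (3 h GLT by the sheet), where 0.485% of all genes passed, 1 rose and 0 fell. Of the 29, 23 lay above 0 there (list median 0.17, all genes -0.01). Against condition 3 (3 h GLT by the records), where 6.93% of all genes passed, 6 rose and 1 fell. Of the 29, 16 lay above 0 there (list median 0.26). With compound D at 24 h against GLT, 2 rose, Me1, the malic enzyme gene (0.72, SE 0.13), and Rgs16 (1.13, SE 0.26), and 0 fell (list median 0.04, all genes 0.01), where 4.09% of all genes passed. Without preparation 1 no gene passed in this comparison. Compound E against compound D at 24 h gave 1 higher, Gpd1 (0.76, SE 0.19), and 3 lower of 29, among them Rgs16 (-1.83, SE 0.31) and Me1 (-0.77, SE 0.14), where 3.01% of all genes passed. From 3 h to 24 h with compound D, where 6.11% of all genes passed, 6 of 29 rose, among them Khk, the ketohexokinase gene (1.45, SE 0.32), and Me1 (0.56, SE 0.13), and 2 fell, G6pc, the glucose-6-phosphatase gene (-2.99, SE 0.45), and Scd1 (-1.31, SE 0.29), a desaturase gene with a close paralog in the table. None of the 29 passed between compound E and GLT at 24 h, where 0% of all genes passed.

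**Figure D4:**
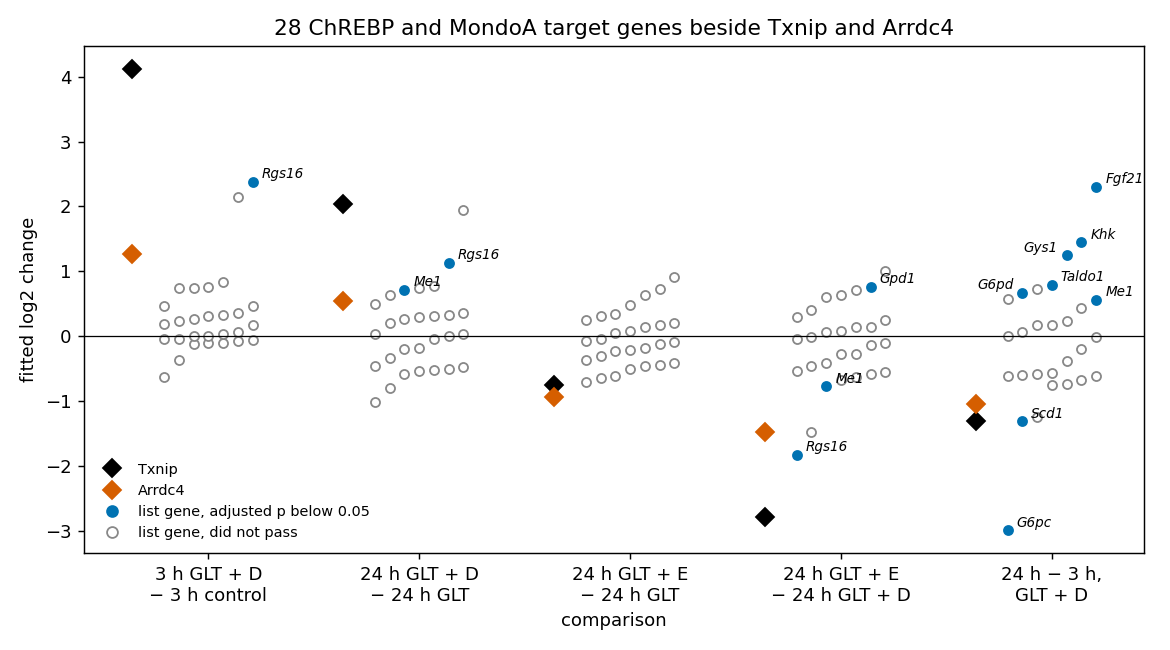
Fitted log2 changes of 28 ChREBP and MondoA target genes (circles, filled and named where the adjusted p was below 0.05) beside Txnip and Arrdc4 (diamonds) in 5 comparisons, without 1 tested target that had 0 counts in a whole condition and so no usable fitted size. Rgs16 is the named target above 1 with compound D at both times.

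Among 9 tested transcription factors and partners of the glucose response other than Mlxipl, 1 passed with compound D at 24 h, where 4.09% of all genes passed. This was Klf10 (1.02, SE 0.27, adjusted p = 0.0491, edgeR), and no gene passed in this comparison without preparation 1. Klf10 was also the 1 of 9 to pass between compounds, lower with compound E than D (-1.32, SE 0.32, adjusted p = 0.0373), where 3.01% of all genes passed. Its likeness to Txnip above comes from these same libraries. With compound D at 3 h against control, where 0.103% of all genes passed, 0 of 9 passed, and Mlx, the partner of ChREBP, stood at -0.06 (SE 0.10). GLT for 24 h was also set against condition 2 (24 h control by the records, 3 h GLT by the sheet), where 8.52% of all genes passed. Here 2 of 9 were higher, Mlx (0.35, SE 0.10) and Hnf4a (0.74, SE 0.18), and 1 lower, the coactivator gene Crebbp (-0.71, SE 0.15). Against condition 3, 0 of 9 passed.

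Of the 16 tested genes of the thioredoxin and peroxiredoxin system, on which Txnip acts, 0 passed with compound D at 3 h against control (median -0.09, all genes -0.04). In that comparison 0.103% of all genes passed. Txn1, the thioredoxin gene, stood at -0.10 (SE 0.37) and Txnrd1, its reductase gene, at 0.34 (SE 0.14). With compound D at 24 h, where 4.09% of all genes passed, Glrx, the glutaredoxin gene, rose (1.15, SE 0.26, adjusted p = 0.0232), and the others did not pass. GLT for 24 h against condition 3, where 5.97% of all genes passed, raised 3 of 16, Srxn1, the sulfiredoxin gene (1.36, SE 0.23), Txnrd1 (0.78, SE 0.14) and Prdx6 (0.93, SE 0.21), and lowered Glrx (-1.02, SE 0.26). Against condition 2 (24 h control by the records, 3 h GLT by the sheet), where 8.52% of all genes passed, Glrx was lower (-1.01, SE 0.26) and 0 were higher.

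Of the 6 inflammasome genes, to which Txnip has been linked, 0 passed with compound D at 3 h against control, where 0.103% of all genes passed. Gsdmd, the gasdermin D gene, rose with compound D at 24 h (0.87, SE 0.22, adjusted p = 0.0418, edgeR), where 4.09% of all genes passed and none passed without preparation 1. Nlrp3 had a mean of 0.939 CPM over all libraries and did not pass in either comparison (adjusted p = 0.995 and 0.638). Of 4 tested other arrestins, Arrdc1 among them, 0 passed in any of the 16 comparisons, where 0% to 12.5% of all genes passed. Arrdc5 had 1 count in 1 library and 0 in the rest. Among 8 tested HECT ligases, 0 passed with compound D against control at 3 h (0.103% of all genes passed) or against GLT at 24 h (4.09%). Nedd4l (-0.53, SE 0.15) and Hecw2 (-2.04, SE 0.56) fell from 3 h to 24 h with compound D, where 6.11% of all genes passed. Glucocorticoid and FoxO responsive genes, a group that can share regulation with Txnip, had 17 tested members. With compound D at 24 h, where 4.09% of all genes passed, 3 rose, Fkbp5 (0.66, SE 0.15), Tsc22d3 (0.82, SE 0.22) and Pik3ip1 (0.98, SE 0.24), and 3 fell, Cited2 (-1.39, SE 0.32), Per1 (-1.08, SE 0.27) and Irs2 (-0.89, SE 0.22). With compound D at 3 h against control, where 0.103% of all genes passed, 0 of 17 passed.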

How the data were processed

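RNA of whole islets from 21 cultures was sequenced. Per the labels' protocols, alignment of the read pairs by the authors used TopHat2 (2.0.3), built on Bowtie2 (2.0.0), with rn5 as the genome, and HTSeq gave the counts. The deposited table holds raw counts per gene. Strand and annotation are not given in the sources used here, so reads of overlapping and antisense genes cannot be told apart. The 5 table entries that name no gene were left out (no feature 10.3% to 18.7%, not unique 4.92% to 23.4%, ambiguous 0.161% to 2.32%).

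Counts were tested with edgeR 4.0.16 (R 4.3.3): TMM scaling, filterByExpr, a quasi-likelihood fit over all 21 libraries with a term for each condition and a block for preparation, 2-sided, with Benjamini-Hochberg adjustment over 12576 genes and a threshold of 0.05. Errors are standard errors of the fitted log2 change and intervals are 95%. The limit for a gene at 0 is 3 counts. The procedure was tested on simulated data. Alternatives were library size scaling, DESeq2 1.42.0, no filter, no block, leaving out preparations or libraries, a term for ambiguous reads, and fits of fewer conditions. Comparisons of condition 6 with conditions 2 and 3, the change of the compound D effect over time and the removal of single libraries were added after the files or their values were seen.

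Preparations are pools of 8 rats. With preparation as a block, p-values measure how far libraries scatter once condition and preparation levels are removed, estimated over all conditions together. They rest on 3 preparations, or 2 for compound E, and do not measure the spread between single rats. The labels give the preparation, and libraries of the same preparation deviated together on the mean (mean r of residuals 0.331, against -0.216 for different preparations). The removal of condition means itself pushes the second value below 0. Preparation 1 held together least (mean r 0.194, lowest pair -0.119). In preparation 1, Rn45s took 7.23% to 7.88% of counts in conditions 1, 5 and 6, and the insulin genes 11.5% to 12.7%. In its conditions 2, 3, 4 and 8 these shares were 1.37% to 2.38% and 23% to 42.6%. The genes named are the members, the genes most like each by Pearson's r, and members of the gene lists. Members and lists were chosen with earlier results of these data known. Results for a few genes that these rules name are not reported here.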

Additional observations from a re-analysis of the deposited data

Results flagged for a closer look

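The effect of compound D, as GLT with the compound minus GLT alone, was smaller at 24 h than at 3 h when the sample records name the 3 h GLT libraries. The difference of the effects was -1.77 for Txnip (adjusted p = 0.0352, edgeR, smaller in 3 of 3 preparations) and -1.46 for Arrdc4 (adjusted p = 0.0412, smaller in 3 of 3 preparations). With the naming of the deposited sheet it was -0.88 for Txnip (adjusted p = 0.675) and -1.29 for Arrdc4 (adjusted p = 0.358). Leaving out preparation 1 ended both calls under the records' naming. By the sheet, condition 3 is 24 h control, and the records' difference would then also hold time and medium. In the endothelial and red-cell marker sums condition 3 lay below every undisputed 3 h library, and in the stellate sums above every one. These comparisons were chosen after the data were seen.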

How the results depend on the processing

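Txnip kept its direction in every alternative run, and the alternatives that moved a call were the following. Without the preparation block, Txnip stood at -1.36 from 3 h to 24 h with compound D (adjusted p = 0.152), at 1.62 and 2.57 for condition 6 against conditions 2 and 3 (adjusted p = 0.0544 and 0.0653), and at -1.86 for the change of the compound D effect by the records (adjusted p = 0.149). In fits of the conditions compared alone it stood at 1.18 for condition 2 against 1 (adjusted p = 0.0368), 3.75 for 5 against 3 (0.163), 2.53 for 6 against 3 (0.177), -2.72 for compound E against D (0.494) and -1.78 for the change of the compound D effect (0.0538). DESeq2 gave 1.20 for condition 2 against 1 (adjusted p = 0.0171). From 3 h to 24 h with compound D, library size scaling gave -1.44 (0.0514) and the 15 undisputed libraries -1.30 (0.0585). Without the compound E library of preparation 1, compound E against D gave -2.78 (0.0601). Apart from that compound E library, leaving out 1 preparation or library gave Txnip -2.26 to -0.99 for the change of the compound D effect, 2.46 to 3.28 for condition 5 against 2, 1.41 to 2.08 for 6 against 2, 2.25 to 2.75 for 6 against 3, 1.86 to 2.24 for 6 against 4, -1.64 to -0.75 for 6 against 5, and -3.01 to -2.63 for 8 against 6. The cause was not tested.

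Arrdc4 for compound E against D was -1.78 with library size (adjusted p = 0.062), -1.42 with the ambiguous-read term (0.0783), -1.49 with the 15 undisputed libraries (0.0927) and -1.59 with these conditions alone (1), and from 3 h to 24 h with compound D it was -1.12 with library size (0.153) and -1.06 with the undisputed libraries (0.107). All 56 changes of sign among the other members were of values called in neither fit. For Arrdc2, condition 2 against 1 gave -0.23 with library size, -0.0003 with DESeq2, -0.01 without the block and -0.0006 with these conditions alone, and condition 8 against 4 gave -0.21 with library size and -0.33 without the compound E library of preparation 1. For Arrdc3, the change of the GLT effect was -0.02 without the block and -0.25 with the ambiguous-read term, condition 5 against 2 was -0.19 with that term and -0.06 with these conditions alone, and condition 8 against 6 was 0.35 without that compound E library. For Mlxipl, condition 3 against 1 was 0.03 with the ambiguous-read term, condition 5 against 2 was 0.23 with library size, and condition 8 against 4 was 0.45 without that compound E library and 0.10 with the term. Apart from that compound E library, leaving out 1 preparation or library gave Arrdc2 -0.27 to 0.31 (2 against 1), -0.24 to 0.36 (3 against 1), -0.03 to 0.62 (6 against 4), -0.11 to 0.69 (8 against 4) and -0.73 to 0.55 (8 against 6). It gave Arrdc3 -0.46 to 0.27 (change of the GLT effect), -0.43 to 0.30 (5 against 2) and -1.77 to 0.69 (8 against 6). It gave Mlxipl -0.37 to 0.05 (2 against 1), -0.40 to 0.16 (3 against 1), -0.22 to 0.16 (5 against 2), -0.32 to 0.12 (5 against 3), -0.67 to 0.45 (8 against 4) and -1.24 to 0.06 (8 against 6). The cause was not tested.

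Counts of genes that passed moved by more than 1.5 times. With DESeq2 and with library size they were 108 and 5 for condition 5 against 1, 905 and 215 for 6 against 4, 835 and 236 for 8 against 6, 1328 and 240 for 6 against 5, 1582 and 633 for 4 against 2, 1285 and 292 for 4 against 3, 165 and 14 for 5 against 2, 1430 and 353 for 5 against 3, 590 and 67 for 2 against 1, 387 and 32 for 3 against 1, 382 and 23 for 6 against 3, 111 and 5 for the change of the GLT effect, and 87 and 3 (sheet) and 1575 and 361 (records) for the change of the compound D effect. Leaving out preparation 2 gave 3241 for 8 against 4 and 4543 for 8 against 6, with 1 library of compound E left. Leaving out preparation 1 gave 1 for 5 against 1, 0 for 6 against 4, 8 against 6, 5 against 2 and 6 against 3, 9 for 6 against 5, 7 for 2 against 1, 21 for 4 against 2, 15 for 4 against 3, 338 for 6 against 2, 0 for the change of the GLT effect and 12 for that of the compound D effect (records). At an unadjusted p below 0.05, 1487 genes passed for 6 against 4 and 1003 for 8 against 6 in edgeR without preparation 1. Fits of the conditions alone gave 0 for 3 against 1 and 5 against 3, 1928 for 6 against 5, 3293 for 4 against 2 and 340 for 5 against 2. For 8 against 6 the split was 230 higher and 148 lower with TMM and 58 higher and 178 lower with library size. Library size moved the median of all genes by -0.40 for 8 against 4 and -0.39 for 8 against 6.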
